A study of Mus musculus with 24 samples.

Results

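The first 2 h of bortezomib were read from 8 of the 24 bead arrays of the series, chosen by their titles: the 4 untreated arrays (0 h) and the 4 arrays after 2 h in 33 nM bortezomib, 1 of each per line. All 4 lines come from multiple myeloma of mice that carry Bcl-XL and Myc transgenes, on an FVBN background crossed with BL/6. Per the labels 595sp and 638bm are drug-sensitive lines, while the VR lines, 595sp VR and 638bm VR, are resistant and listed under the cell line name of their namesake, so that the 4 lines go back to 2 names. The untreated arrays were the only controls: no array of untreated cells at 2 h was analysed here, so that effects of the drug and of handling over the same 2 h cannot be told apart. Each line had 1 array per time, and the 4 lines served as replicates (n = 4 pairs). The labels do not say that arrays came from separate cultures. With the shared line names, it is also not known whether the 4 pairs are independent. A p-value sets the mean change against the spread of the changes over the 4 lines, moderated by the spread of the other genes. For the array of 638bm VR titled 2 h, the timepoint characteristic gives 24 h instead. The title was followed, and with the characteristic instead 109 genes were higher and 251 lower.

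Bortezomib blocks the proteasome, the complex that degrades ubiquitin-tagged proteins. Cells answer a blocked proteasome with heat shock factor, which raises chaperone genes, with NRF1, which raises the proteasome's own subunit genes, and with the unfolded protein and oxidative stress responses. Plasma cells depend on these systems because they fold and secrete antibody in bulk. Several regulators that the proteasome normally clears within minutes, such as the SMAD co-repressors SKI and SnoN and the hypoxia-inducible factors, are themselves controlled by degradation, and so is the NF-kB inhibitor that keeps that pathway off.

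The arrays carried 15488 to 17832 probes above background (34.2 to 39.4% of 45281), and the number of arrays limits the precision. Values are log2 of the normalized signal, for 11143 genes. Plasma cell markers were present: 7 of the 8 measured stood above background on all 8 arrays, and the log2 of their summed signal was 14.08 to 14.79 at 0 h and 14.19 to 14.69 at 2 h. Of these 8, Slamf7 (-0.73 ± 0.14, SE; limma, adjusted p = 0.0165) and Fkbp11 (-0.46 ± 0.11, adjusted p = 0.0294) were lower at 2 h. Over all genes 4.38% were called lower. The call of Slamf7 was lost without 595sp, 638bm or 595sp VR, and that of Fkbp11 with any 1 line left out. B cell markers were present too: 6 of the 8 measured stood above background on all 8 arrays. The log2 of their summed signal was 13.08 to 13.59 at 0 h and 12.92 to 13.63 at 2 h. Of the markers of macrophages (3 measured), neutrophils (2), erythroid cells (3) and stroma (1), none stood above background on every array. The macrophage marker Mrc1 was called lower (-0.58 ± 0.13, limma, adjusted p = 0.0265). It was above background on 4 of 4 untreated and 1 of 4 treated arrays, so that it entered the test through the arrays where it is high. Csf1r, another, stood at 8.36 and 7.90 in 595sp and at 5.22 to 5.77 in the other untreated lines. The part of such cells was not tested. Cd2, listed here among T cell markers, stood above background on every array, with means of 9.04 at 0 h and 10.09 at 2 h. Cd3d, Cd3e and Cd3g did so on at most 2 of 4 arrays at either time. For Cd3g this count hides a split by line. At 2 h it stood at 9.08 and 9.55 in 595sp and 595sp VR, and at 5.36 and 4.71 in 638bm and 638bm VR. The split was the same at 0 h. Cd2 did not share it, at 11.21 and 10.79 at 2 h in 638bm and 638bm VR. The background itself shifted between the paired arrays of 595sp VR alone, by 0.66 on the log2 scale of the raw signal, against -0.02 to -0.05 in the other lines. Its 0 h and 2 h arrays also stand in different blocks of 6 columns in the table. The part of this shift in the results was not tested beyond values without that line and with the background as a covariate.

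With the line as a block, 266 of 11143 genes had risen (2.39%) and 488 had fallen (4.38%) (limma, adjusted p under 0.05). Of these 754 genes, 746 moved the same way in all 4 lines, against 3433 of all 11143 genes; the call itself asks for like changes in the 4 pairs, so that this count is no support for it. On the mean 62 changed at least 2-fold (27 higher, 35 lower). As a description of these genes, which were chosen on the same changes, the lines had median changes of 0.52 (595sp), 0.53 (638bm), 0.58 (595sp VR) and 0.68 (638bm VR) for those higher, and of -0.57, -0.50, -0.61 and -0.69 for those lower. At least 2-fold in a single line were 31, 46, 38 and 59 of the genes called higher and 43, 39, 64 and 104 of those called lower, in the order 595sp, 638bm, 595sp VR and 638bm VR. Over all genes the change of a single line had an SD of 0.34, 0.32, 0.38 and 0.42 in the same order of lines. The 2 arrays that each line has at 24 h differed by an SD of 0.18 to 0.26. Without 595sp VR, which leaves the 3 lines whose paired arrays lay in 1 block of columns, 56 genes were higher and 91 lower; without 595sp 100 and 178, without 638bm 138 and 283, and without 638bm VR 122 and 241. Of the 754 calls, 253 were kept without 595sp, 376 without 638bm, 145 without 595sp VR and 323 without 638bm VR. With the background level as a covariate 82 were higher and 172 lower.

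Genes were ranked by the smallest of their 4 line changes, so that larger means resting on some lines come later. Spsb1, a substrate adaptor of cullin-RING ubiquitin ligases, stood at 5.37, 6.21, 6.32 and 5.85 at 0 h in 595sp, 638bm, 595sp VR and 638bm VR and at 6.83, 8.66, 8.95 and 8.26 at 2 h. Its 2 h values all lay above its 0 h values, and it rose 4.72-fold (log2 2.24 ± 0.17, SE, n = 4 lines; limma, adjusted p = 0.000202). Skil encodes SnoN, a co-repressor that binds SMADs and holds back TGF-beta target genes. Its levels were 8.50, 8.23, 8.45 and 9.24 at 0 h and 9.94, 10.04, 10.01 and 10.51 at 2 h, in the same order of lines. The groups did not overlap, and the rise was 2.86-fold (1.52 ± 0.12, adjusted p = 0.000202). Ski, the founding member of that co-repressor family, went from 6.28, 6.70, 5.63 and 7.26 to 7.75, 7.68, 7.63 and 8.13 (1.33 ± 0.17, adjusted p = 0.00377). Its 4 lines lay closer together after treatment than before it. Endod1, named for an endonuclease domain, rose from 6.72, 5.63, 5.22 and 6.12 to 8.14, 7.75, 7.25 and 8.20 (3.77-fold, 1.92 ± 0.14, adjusted p = 0.000193). On 1 of the 4 untreated arrays its signal did not exceed background.

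The other 6 of the 10 genes ranked highest in this way were Zfp52, a zinc finger gene (1.34 ± 0.12), Nuak1, a kinase related to AMPK (1.51 ± 0.21), Tubb6, a beta tubulin (1.15 ± 0.13), Tle3, a co-repressor of the Groucho family (1.11 ± 0.13), Pon2, a paraoxonase (0.95 ± 0.11), and Whrn, a scaffold protein (0.91 ± 0.11), with adjusted p from 0.000763 to 0.00451. Nuak1 varied most among lines, from 0.94 in 595sp VR to 2.42 in 638bm VR. Spsb1, Endod1, Skil and Zfp52 were the 4 genes that rose at least 2-fold in every line. Levels at later times, which share the 0 h arrays with the 2 h change, showed some of these rises to be short. Spsb1 was back at 5.65, 6.17, 6.12 and 6.22 by 8 h, and Ski at 6.39, 6.55, 5.36 and 6.99. Skil at 8 h stood at 8.83, 8.66, 8.82 and 9.58, below 2 h and above 0 h in every line. So did Endod1, at 7.48, 6.36, 5.88 and 7.37. Zfp52 stayed high, at 10.55, 9.26, 7.77 and 6.67 at 2 h and 10.47, 8.90, 7.50 and 6.43 at 8 h.

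**Figure D1:**
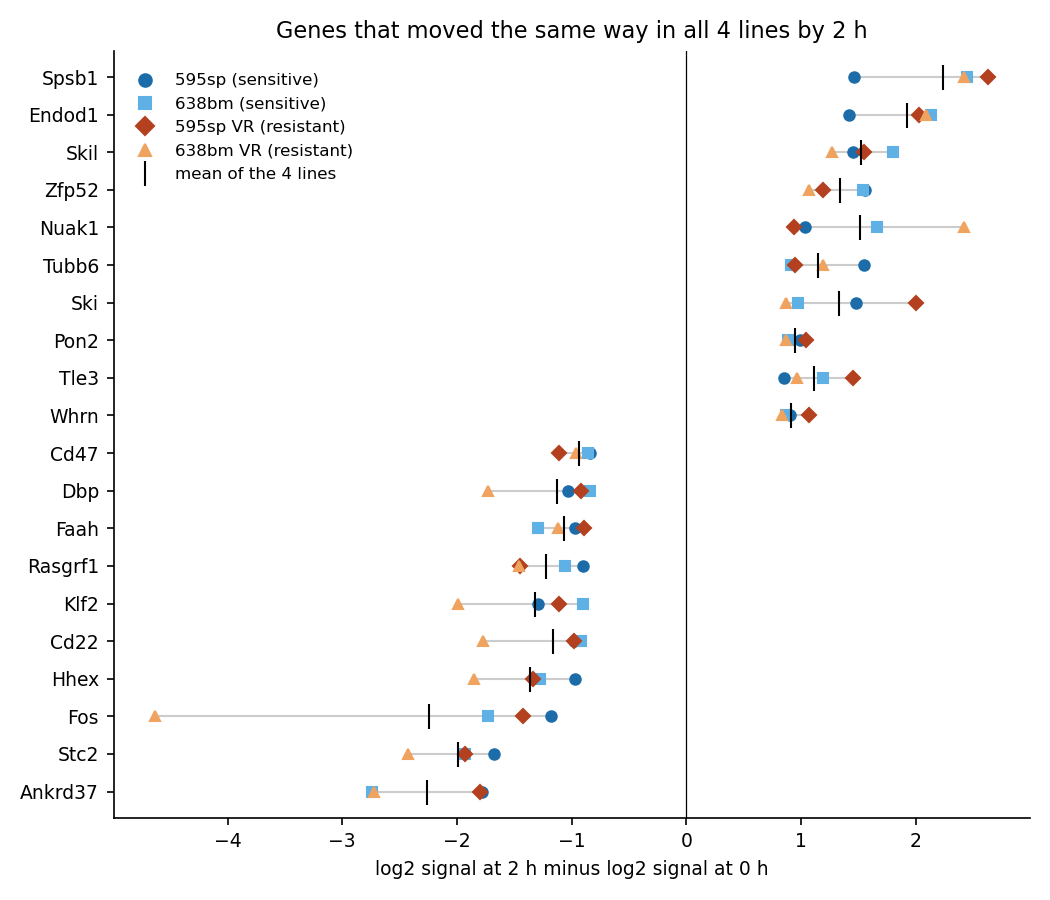
Change from 0 h to 2 h on the log2 scale (x axis) of 10 risen and 10 fallen genes, ranked by the smallest of a gene's 4 line changes. Symbols are the 4 lines and black bars their mean; Spsb1 lies between 1.46 and 2.63, Ankrd37 between -2.74 and -1.78, and Fos in 638bm VR at -4.63 lies far below its other 3 values.

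Of genes that fell, Ankrd37 and Stc2 ranked first in the same way. Ankrd37, an ankyrin repeat gene known as a target of hypoxia-inducible factor (HIF), stood at 9.78, 10.43, 10.68 and 11.02 at 0 h and at 8.00, 7.69, 8.89 and 8.31 at 2 h. Every 2 h value lay below every 0 h value, and it fell 4.79-fold (-2.26 ± 0.18, adjusted p = 0.000202). Stc2, a secreted glycoprotein of the stanniocalcin family that stress can induce, went from 9.25, 9.32, 9.41 and 10.04 to 7.57, 7.39, 7.47 and 7.61 (3.98-fold, -1.99 ± 0.13, adjusted p = 0.000192). The untreated and treated values did not overlap, and the lines had an SD of 0.36 at 0 h and 0.10 at 2 h. Hhex, Rasgrf1, Faah, Dbp, Cd22, Cd47, Klf2 and Fos made up the other 8 of the 10 lower genes. The changes were, for Hhex, a homeobox transcription factor, -1.36 ± 0.14, for Rasgrf1, an activator of Ras, -1.22 ± 0.13, for Faah, a fatty acid amide hydrolase, -1.07 ± 0.11, and for Dbp, a clock output factor, -1.13 ± 0.15. Their adjusted p lay between 0.0022 and 0.00393. A second clock gene, Per1, fell too (-0.92 ± 0.14, adjusted p = 0.00628), and these were 2 of 10 measured clock genes, against 4.38% lower over all genes. Cd22, an inhibitory receptor of B cells, fell (-1.16 ± 0.15, adjusted p = 0.00377). It was the 1 of 8 measured B cell markers that passed, against 4.38% lower over all genes, with a list median of -0.16. Another surface protein that fell was Cd47, a brake on uptake by macrophages (-0.94 ± 0.11, adjusted p = 0.00255). Cd274, the ligand of PD-1, fell as well (-1.09 ± 0.19, adjusted p = 0.0109, lost without 595sp). In bulk RNA, fewer cells of a type and less RNA per cell cannot be told apart. For Spsb1, Endod1, Skil, Zfp52, Nuak1, Tubb6, Ski, Pon2, Tle3, Whrn, Ankrd37, Stc2, Hhex, Cd22, Klf2, Rasgrf1, Faah, Dbp, Per1 and Cd47, the call held with any 1 line left out. A dimmer probe of Faah, above background on all 8 arrays, read -0.51, and another, above background on 3 of 8, read -0.02.

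HIF target genes were taken next. HIF is a transcription factor that low oxygen stabilises, and its targets supply glucose, lactate export and blood vessel growth. Of 23 measured HIF target and glycolysis genes, 12 fell and 0 rose, against 4.38% lower over all genes, with a median change of -0.60 over the list and -0.01 over all genes. Ankrd37 is one of the 12. In the lines the list's median was -0.24, -0.58, -0.55 and -0.76, again in the order 595sp, 638bm, 595sp VR and 638bm VR, and 15 members went down in all 4 lines, where 3433 of 11143 genes moved one way in all 4. P4ha1, a prolyl hydroxylase for collagen, went from 9.19, 9.15, 8.16 and 8.50 to 8.4, 7.91, 7.05 and 7.13 (-1.13 ± 0.12, adjusted p = 0.00234). Vegfa, the vessel growth factor, went from 9.64, 9.15, 8.97 and 10.39 to 8.88, 7.51, 8.03 and 8.52 (-1.3 ± 0.18, adjusted p = 0.0043). Both fell in each line, with the smallest steps in 595sp. Pdk1, which keeps pyruvate out of the mitochondria, fell by 0.70 to 1.06 in the lines (-0.82 ± 0.11, adjusted p = 0.00453).

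Ndrg1, a gene induced by hypoxia and other stress, fell as well (-1.27 ± 0.26, adjusted p = 0.0201). The other called members, named after their values were seen, were the glucose transporter Slc2a1 (-1.18 ± 0.19), the phosphofructokinases Pfkl (-1.14 ± 0.19) and Pfkp (-1.01 ± 0.20), the histone demethylase Kdm3a (-0.66 ± 0.11), the prolyl hydroxylase Egln3 that marks HIF for degradation (-0.98 ± 0.26), the glycolytic enzyme Pgam1 (-0.60 ± 0.14) and the mitophagy receptor Bnip3l (-0.58 ± 0.14), with adjusted p from 0.0085 to 0.0459. Slc2a1, Pfkl, Pfkp and Kdm3a lost their call without 595sp VR, Ndrg1 without 595sp, Egln3 without 595sp, 595sp VR or 638bm VR, Bnip3l without 638bm, 595sp VR or 638bm VR, and Pgam1 with any 1 line left out. A pair of further genes of this metabolism fell outside the list: Slc16a3, the lactate exporter (-1.05 ± 0.13, adjusted p = 0.00275), and Ak4, a mitochondrial adenylate kinase (-1.39 ± 0.16, adjusted p = 0.00238). A second, dimmer probe of Slc16a3 read -0.11. Dimmer probes of Pfkl and Pgam1, above background on all 8 arrays, read -0.24 and -0.19, with 0.34 in 595sp for Pfkl and 0.48 in 595sp VR for Pgam1. Other probes of Pfkp and Ndrg1 read -0.94 and -1.24, and those of Kdm3a -0.65 to -0.46. Slc2a1, Pfkl and Pfkp fell least in 595sp, by 0.38, 0.33 and 0.21. Ndrg1 fell most in 595sp VR (-2.58), and Egln3 did not fall in 638bm (0.10, at a level not above background there). With 1 line left out, the count of fallen members was 5 (595sp VR), 9 (595sp or 638bm VR) or 10 (638bm). At 8 h the list's median against the same 0 h arrays was -0.68, -1, -0.76 and -1.14, and at 16 h it was 0.16, 0.02, -0.24 and -0.82. At 24 h it was low again in every line, at -0.63, -0.57, -0.63 and -1.26.

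**Figure D2:**
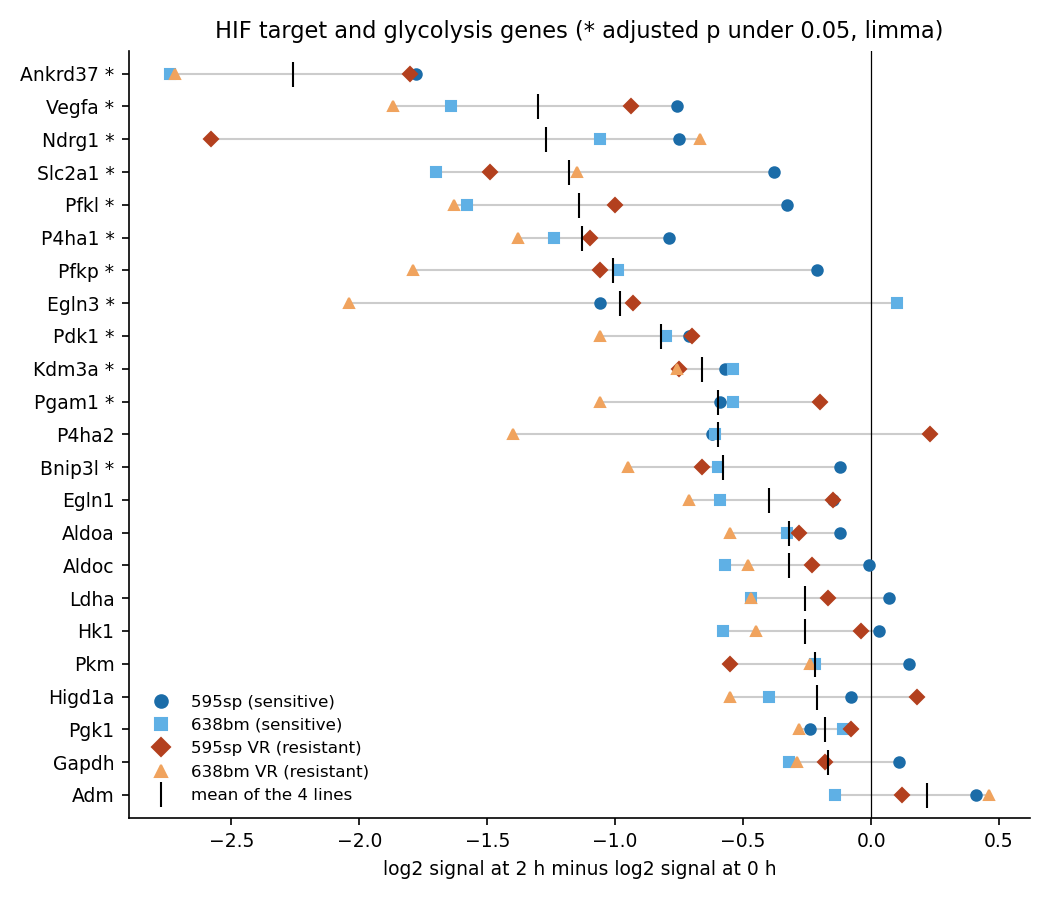
Change from 0 h to 2 h on the log2 scale (x axis) of the 23 measured HIF target and glycolysis genes, sorted by their mean; symbols are the 4 lines, black bars the mean of the lines, and asterisks mark the 12 genes that passed. All but 1 have a mean below 0, and 595sp often lies nearest to 0.

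Promoters of fallen and risen genes are shown because HIF, heat shock factor and CREB each read short DNA words near gene starts. RefSeq windows on build GRCm38.p6, from 250 bases before to 50 bases after the start, exist for 9040 of the genes tested. The HIF core (ACGTG or GCGTG, both strands, overlaps allowed) lies in 66.1% of these genes' windows and in all 21 list members that have a window, 10 called members among them. The share was 71.6% of genes called lower and 68.3% of genes called higher. The windows of Ankrd37 (chr8:45999801-46000100, minus strand) and P4ha1 (chr10:59323046-59323345, plus strand) hold 4 and 3 matches. The capitals mark matches, 2 of which overlap in Ankrd37. A match describes the letters and is no measured binding site.
Ankrd37: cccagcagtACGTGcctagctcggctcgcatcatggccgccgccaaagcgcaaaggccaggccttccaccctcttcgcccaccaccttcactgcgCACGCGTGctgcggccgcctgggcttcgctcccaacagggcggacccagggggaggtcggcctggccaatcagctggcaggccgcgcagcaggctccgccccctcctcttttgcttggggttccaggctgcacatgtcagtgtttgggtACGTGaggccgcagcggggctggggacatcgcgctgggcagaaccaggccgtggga
P4ha1: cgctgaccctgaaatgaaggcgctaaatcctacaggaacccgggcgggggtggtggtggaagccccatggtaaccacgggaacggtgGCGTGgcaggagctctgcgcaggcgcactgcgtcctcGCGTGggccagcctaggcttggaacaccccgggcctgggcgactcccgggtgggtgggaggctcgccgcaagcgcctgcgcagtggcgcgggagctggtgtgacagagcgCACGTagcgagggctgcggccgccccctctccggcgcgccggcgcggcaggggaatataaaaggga

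Immediate early genes are those that serum and growth factors switch on within minutes. Of 24 measured, 8 fell at 2 h, 0 rose and 16 did not pass, against 4.38% lower over all genes. The list's median was -0.49. Fos, a subunit of the AP-1 transcription factor, stood at 7.75, 8.81, 8.10 and 12.53 at 0 h and at 6.56, 7.09, 6.67 and 7.90 at 2 h (-2.24 ± 0.44, adjusted p = 0.018). The groups overlapped, untreated 638bm VR stood far above the other 3 lines, and its change of -4.63 compares with -1.18, -1.73 and -1.42 in 595sp, 638bm and 595sp VR. Dusp1, a phosphatase that switches off MAP kinases, went from 9.11, 10.36, 9.65 and 12.32 to 8.27, 8.46, 8.18 and 8.07 (-2.12 ± 0.41, adjusted p = 0.0174). The groups did not overlap, and the lines lay closer together at 2 h than at 0 h. Atf3, a stress-induced factor of the ATF family, went from 9.04, 7.25, 7.05 and 10.37 to 8.71, 6.21, 6.20 and 7.49 (-1.28 ± 0.31, adjusted p = 0.0378). Its groups overlapped, and the call was lost without 595sp, 638bm or 595sp VR.

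Klf2, a factor of resting lymphocytes, changed by -1.99 to -0.90 in the lines (-1.32 ± 0.16, adjusted p = 0.00291). The RNA-destabilising protein Zfp36 fell by 0.76 ± 0.15 on the mean (adjusted p = 0.017). Klf6 (-1.02 ± 0.24), Dusp6 (-0.78 ± 0.19) and Zfp36l1 (-0.61 ± 0.16), named with Fosb after their values were seen, passed too. Fosb, an AP-1 subunit, changed by -0.66, -1.96, 0.21 and -3.68 in the 4 lines and did not pass (adjusted p = 0.0755). Egr1 did not pass either (-0.23 ± 0.14, adjusted p = 0.361). Without 638bm VR, 7 of 24 members still fell, with a list median of -0.39, and without 595sp VR only Klf2 did, with a median of -0.61. The calls of Fos, Dusp1 and Zfp36 were lost without 595sp VR, that of Klf6 without 595sp or 595sp VR, that of Dusp6 without 595sp, 638bm or 595sp VR, and that of Zfp36l1 with any 1 line left out. At 24 h Fos stood at 5.89, 5.75, 5.51 and 5.34, below its 2 h level in every line. Integrated stress response genes were mixed: Ppp1r15a, which restores translation after stress, fell (-0.94 ± 0.19, adjusted p = 0.0198), Stc2 fell, and Atf5 rose (0.59 ± 0.14, adjusted p = 0.034), of 23 measured. Over all genes 2.39% were higher and 4.38% lower. Without 595sp VR Ppp1r15a and Atf5 lost their call, and Atf5 also without 595sp or 638bm VR.

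The word that CREB and ATF proteins bind, TGACGTCA, lies in 3.54% of genes' windows, in 2 of 21 immediate early members with a window and, of 8 fallen ones, in 1. It is Dusp1 (chr17:26508423-26508722, minus strand), whose window holds 1 match, in capitals.
Dusp1: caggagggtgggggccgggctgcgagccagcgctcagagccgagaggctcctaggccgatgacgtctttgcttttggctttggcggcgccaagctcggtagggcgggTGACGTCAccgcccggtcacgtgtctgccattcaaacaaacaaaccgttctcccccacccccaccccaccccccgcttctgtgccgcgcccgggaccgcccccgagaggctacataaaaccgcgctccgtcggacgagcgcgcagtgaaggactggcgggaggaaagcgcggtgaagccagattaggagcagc

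**Figure D3:**
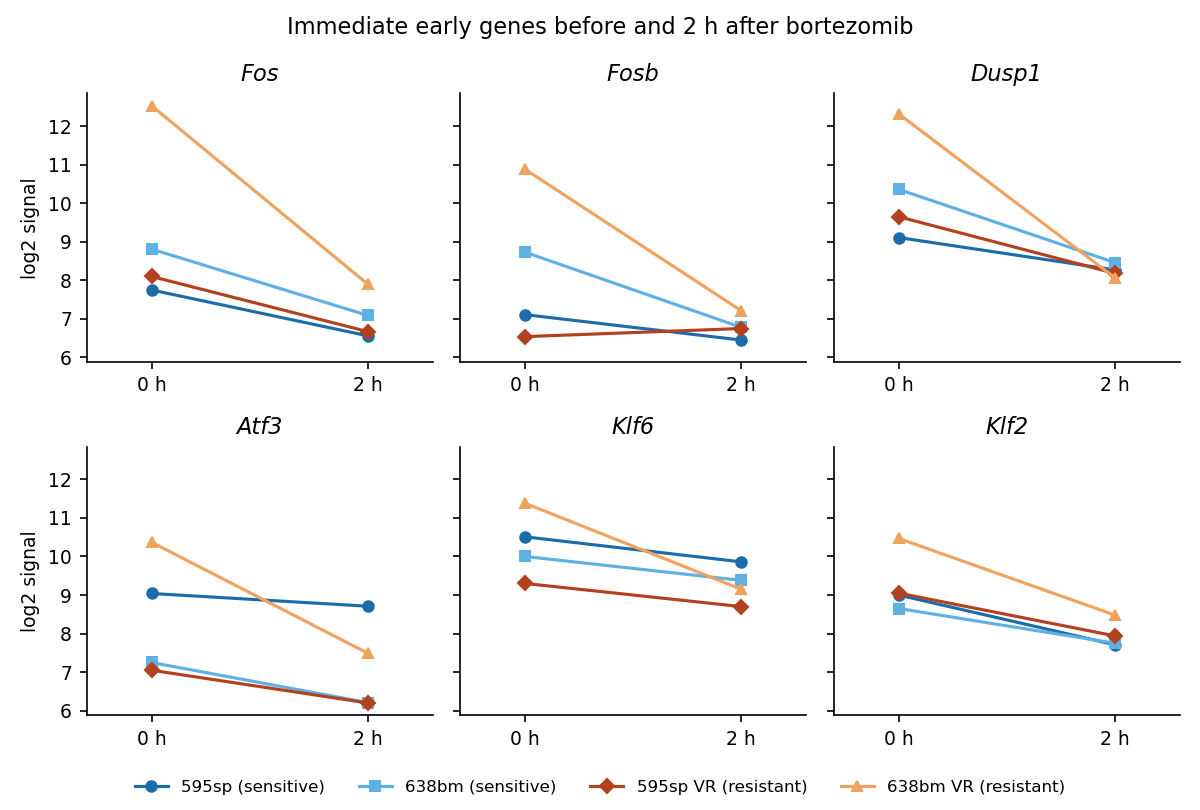
Log2 signal (y axis) of 6 immediate early genes at 0 h and 2 h, 1 line per cell line. In untreated 638bm VR all 6 genes lie above the other lines, at 12.53 for Fos and 12.32 for Dusp1, and at 2 h the lines lie closer together for Fos and Dusp1.

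Some genes of the proteasome stress programmes rose. Zfand2a, an arsenite-inducible protein that works with p97 and the proteasome, went from 8.19, 9.08, 8.75 and 8.67 to 9.70, 9.83, 9.77 and 10.12 (2.27-fold, 1.18 ± 0.14, adjusted p = 0.00275). The groups did not overlap, and by 8 h it stood higher still, at 10.61, 11.17, 10.05 and 10.20. Nploc4, a cofactor of p97, rose by 0.69 ± 0.13, and Vcp, which is p97 itself, rose by 0.49 ± 0.11 (adjusted p = 0.017 and 0.0314). These were 3 of 8 measured ubiquitin, p97 and shuttle factor genes, with 0 lower, against 2.39% higher over all genes. Psmd1, a scaffold subunit of the 19S cap, rose by 0.60 ± 0.14, and Psmc2, an ATPase of its base, by 0.42 ± 0.11 (adjusted p = 0.0311 and 0.0463). They were the 2 called of 27 measured proteasome subunits, against 2.39% higher over all genes, while 16 of the 27 went up in all 4 lines and 0 went down in all. The list's median was 0.24 at 2 h. Against the same 0 h arrays it was 0.88, 0.54, 0.74 and 0.95 in the 4 lines at 8 h. Of 5 measured proteasome assembly and NRF1 genes 0 rose and 1 fell, Psmg1 (-0.44), against 4.38% lower over all genes. Psmc2, Vcp and Pdia3 lost their call with any 1 line left out, Psmd1 without 595sp, 595sp VR or 638bm VR, and Nploc4 without 595sp or 595sp VR.

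Psmb5, the subunit that bortezomib binds, changed by -0.02 and 0.04 in 595sp and 638bm, and by 0.77 and 0.75 in their VR counterparts. It did not pass over all lines (0.39 ± 0.16, adjusted p = 0.164), and the difference between resistant and sensitive lines was 0.75 ± 0.22 (unadjusted p = 0.00757, adjusted p = 1). Of 21 measured genes of endoplasmic reticulum chaperones and degradation 4 rose and 0 fell, against 2.39% higher over all genes: Pdia6, a disulfide isomerase (0.96 ± 0.15, adjusted p = 0.0081), the chaperone Hspa5 (0.72 ± 0.12), Creld2 (0.61 ± 0.13) and Pdia3 (0.47 ± 0.11). A second probe of Pdia6, at a mean level of 7.14 against 7.39, read 0.40. Its changes were 0.59, 0.10, 0.14 and 0.77 in 595sp, 638bm, 595sp VR and 638bm VR. Of 14 oxidative stress genes 3 were called higher (2.39% over all genes). They were Sqstm1, the p62 autophagy receptor (0.83 ± 0.14, adjusted p = 0.0118), Gclm, which helps make glutathione (0.76 ± 0.16, adjusted p = 0.0242), and Txnrd1. Txnrd1 was above background on 0 of 4 untreated and 3 of 4 treated arrays. It entered the test only through treated arrays (2 h or later), with 0 h values at background. Its call (limma, adjusted p = 0.0376) therefore supports nothing. Its level at 2 h was at least 1.27-fold the lowest level above background at 0 h. Gclm and Txnrd1 lost their call without 595sp, 595sp VR or 638bm VR, Sqstm1 without 595sp, Hspa5 without 595sp VR and Creld2 without 595sp or 638bm VR. Hmox1, a classic oxidative stress gene, changed by 0.14 ± 0.13 (adjusted p = 0.562).

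Among heat shock genes few passed at 2 h. Of 23 measured, 2 were called higher and 0 lower (2.39% higher over all genes). One was Hspa4l (0.47 ± 0.12, adjusted p = 0.0432), whose call was lost with any 1 line left out. The other, Dnaja1, was above background on 0 of 4 untreated and 4 of 4 treated arrays and so entered the test only where it is high. Its call (adjusted p = 0.0464; kept only without 638bm) supports nothing, and its difference was at least 1.08-fold. Hspa1a, the inducible 70 kDa chaperone, changed by 2.68 in 595sp and by 0.17, -0.46 and 0.19 in 638bm, 595sp VR and 638bm VR (0.64 ± 0.38, adjusted p = 0.346). Hspa1b, its near-identical copy, from which its signal may not be separable, changed by 1.21, -0.20, 0.14 and -0.10. Dnajb1, an HSP40 co-chaperone, changed by 1.24 in 595sp and by -0.30 to 0.36 in the other lines. In 595sp alone these 3 genes were thus at least 1.21 units up, as values of 1 pair of arrays with no test. Hspa8, the constitutive form (0.36 ± 0.12, adjusted p = 0.0893), and Hspb1 (0.30 ± 0.12, adjusted p = 0.175) did not pass. The heat shock word (GAANNTTC or TTCNNGAA, both strands) lies in 14.1% of windows, in 12 of 19 heat shock list members with a window and in 14.2% of genes called higher. The window of Zfand2a (chr5:139484442-139484741, minus strand) holds 1 match, in capitals.
Zfand2a: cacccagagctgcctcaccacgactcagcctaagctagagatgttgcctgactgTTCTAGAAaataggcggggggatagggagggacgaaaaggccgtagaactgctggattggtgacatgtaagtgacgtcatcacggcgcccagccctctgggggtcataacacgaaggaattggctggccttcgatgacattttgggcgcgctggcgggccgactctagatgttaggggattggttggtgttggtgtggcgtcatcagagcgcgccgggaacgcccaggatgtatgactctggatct

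Cytokine and growth pathways moved in parts. Stat3, a transcription factor downstream of interleukin 6, rose by 0.94 ± 0.12 (adjusted p = 0.00344), and so did Bcl6, a repressor of the germinal centre (0.85 ± 0.20, adjusted p = 0.0333). These were 2 of 10 measured JAK-STAT genes, against 2.39% higher over all genes. Of 9 measured genes on a list of ID genes and SMAD feedback, Skil, Ski and Tgfb1 (0.81 ± 0.18, limma, adjusted p = 0.0274) rose. Tgfb3 (-0.62 ± 0.15, adjusted p = 0.035) and Bhlhe40 (-0.54 ± 0.13, adjusted p = 0.0367) fell. Bhlhe40, a repressor, was named after its value was seen, and its call was lost with any 1 line left out. The shares over all genes were 2.39% higher and 4.38% lower. Of 23 NF-kB genes 3 were called higher and 1 lower, against 2.39% and 4.38% over all genes. Cd40, a receptor that activates B cells, went from 9.67, 7, 6.79 and 6.37 to 10.21, 9.16, 8.61 and 8.3 (3.05-fold, 1.61 ± 0.22, adjusted p = 0.0043). The caspase inhibitor Cflar rose by 0.55 ± 0.13, and the lymphotoxin gene Ltb fell by 0.57 ± 0.14. Bcl3, a nuclear member of the IkB family, was above background on 0 of 4 untreated and 3 of 4 treated arrays, a difference of at least 1.25-fold, and its call supports nothing because it entered the test only where it is high. Nfkbia, the inhibitor gene that NF-kB itself induces, changed by -0.03 ± 0.15 (adjusted p = 0.918). Ciita, the master activator of MHC class II, fell (-0.96 ± 0.13, adjusted p = 0.00423), 1 of 10 measured genes of that list, against 4.38% lower over all genes. The calls of Cflar and Bcl3 were lost with any 1 line left out, those of Bcl6 and Ltb without 595sp, 595sp VR or 638bm VR, that of Tgfb1 without 638bm, 595sp VR or 638bm VR, and that of Tgfb3 without 595sp, 638bm or 595sp VR.

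Of 13 measured genes of sterol and fatty acid synthesis 5 fell and 0 rose, against 4.38% lower over all genes, with a median of -0.39: Dhcr7, the last enzyme of cholesterol synthesis (-0.87 ± 0.12, adjusted p = 0.00479), the desaturases Scd2 (-0.68 ± 0.12) and Scd1 (-0.49 ± 0.12), Sqle, the squalene epoxidase (-0.75 ± 0.19), and Msmo1 (-0.92 ± 0.23). Sqle and Msmo1 fell by 0.53 or less in 595sp and by 0.15 or less in 638bm VR, and by at least 1.18 in 638bm and 595sp VR. The count was 2 without 595sp, 638bm or 595sp VR. Of 12 p53 targets, with the same 4.38% as background, Sesn1 (-0.73 ± 0.12), Rrm2b (-0.72 ± 0.13) and Plk2 (-0.68 ± 0.15) fell and 0 rose; without 595sp VR 0 of the 12 passed and without 595sp 1. Of the D-type cyclins, Ccnd1 (-0.70 ± 0.12, adjusted p = 0.0122) and Ccnd3 (-0.45 ± 0.11, adjusted p = 0.0349; lost with any 1 line left out) fell. Of 48 histone genes 8 fell, against 4.38% lower over all genes, most of them H2A genes of near-identical sequence that probes may not separate, and the list's median was -0.09. Igtp and Irgm2, GTPases induced by interferon gamma and picked after their values were seen, fell by 0.96 ± 0.11 and 0.88 ± 0.11 (adjusted p = 0.00234 and 0.00366). Of 18 measured genes on the interferon list, which holds neither of them, 2 were called lower and 0 higher (4.38% lower over all genes). They were Ifit2 (-0.48 ± 0.11, limma, adjusted p = 0.0295) and Mx1 (-0.55 ± 0.11, adjusted p = 0.0177). Only 1 of the 8 arrays, an untreated array, showed Mx1 over its background. With means of 5.34 at 0 h and 4.8 at 2 h, no bound could be set for its fold change. The call of Mx1 therefore supports nothing. The list's median was -0.16, and 3 members went down and 1 went up in all 4 lines. The latter, Gbp3, did not pass (0.53 ± 0.16, limma, adjusted p = 0.0727). No member passed among 19 DNA replication, 13 mitosis, 16 ribosome biogenesis and 11 MYC network genes. Myc (0.31 ± 0.11, adjusted p = 0.134), Bcl2l1, the gene of Bcl-XL (-0.35 ± 0.15, adjusted p = 0.193), Mcl1 (0.12 ± 0.12, adjusted p = 0.574) and Ddit3, which encodes CHOP (0.07 ± 0.13, adjusted p = 0.784), did not pass. Whether probes of Myc and Bcl2l1 also pick up transgene transcripts was not tested.

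**Figure D4:**
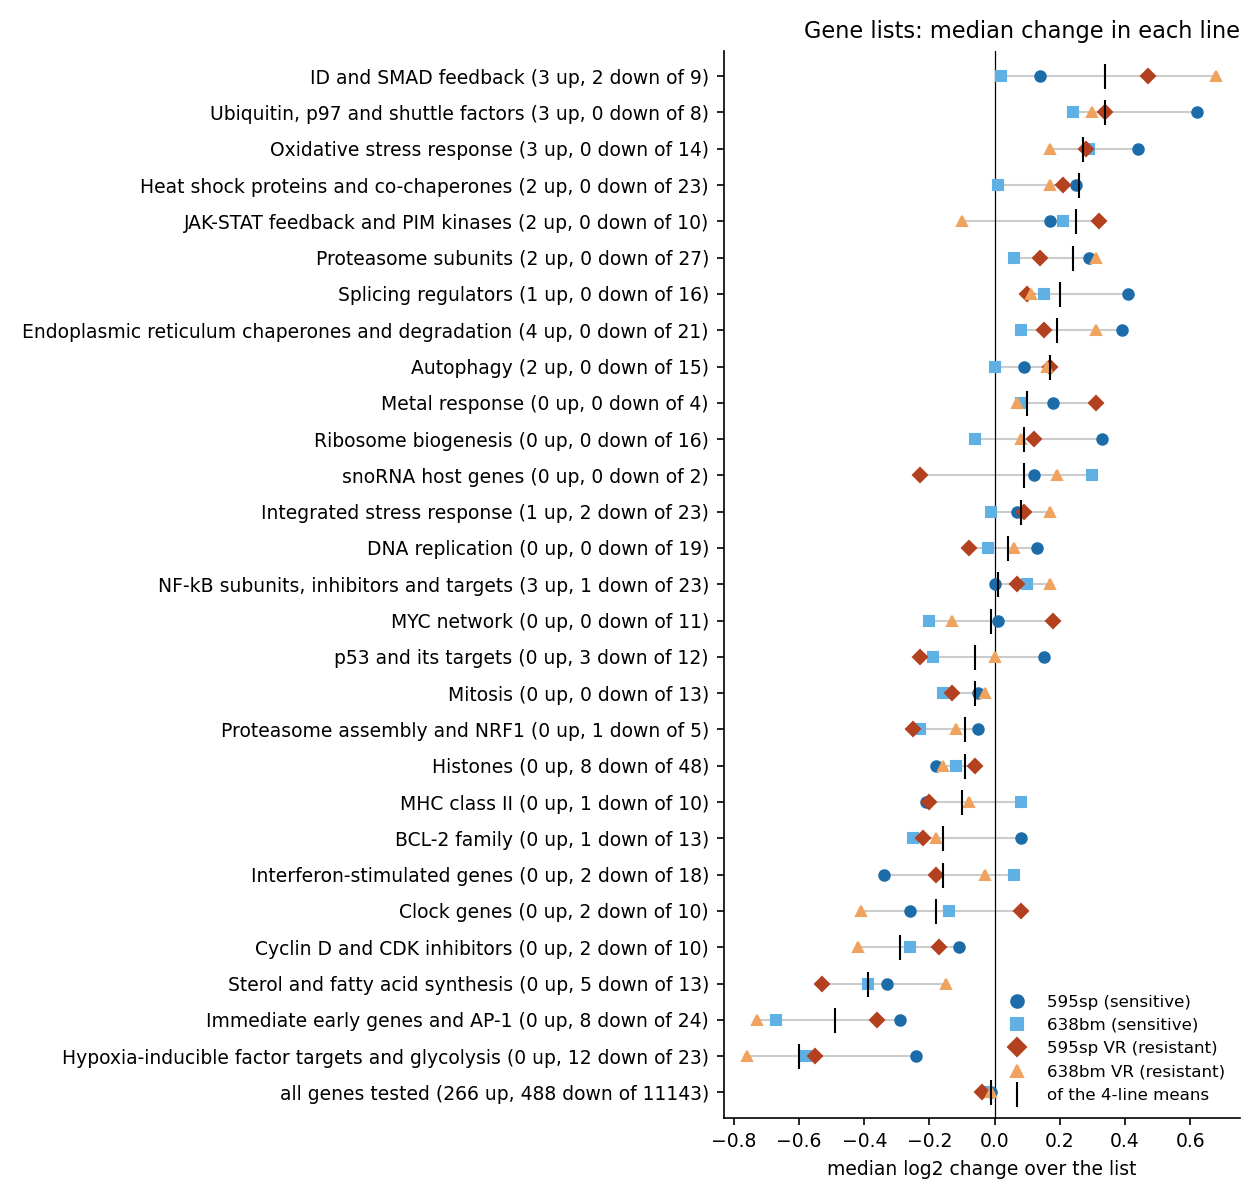
Median log2 change from 0 h to 2 h (x axis) over the measured members of 28 gene lists and over all genes tested, in each line (symbols) and for the mean of the 4 lines (black bars), with the counts of called members in brackets. By the black bars HIF target genes lie furthest to the left (-0.60), with all 4 lines between -0.76 and -0.24, while all genes lie near 0. Single lines differ: in 595sp other lists lie lower, such as interferon-stimulated genes (-0.34), and in 638bm immediate early genes do (-0.67).

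The 2 labelled arms were then compared in 1 model with 2 lines each. In the resistant lines 39 genes rose (0.35%) and 70 fell (0.628%), and in the sensitive lines 4 rose and 4 fell (0.0359% each; limma, adjusted p under 0.05). The sensitive lines' 8 genes were Spsb1, Endod1, Skil and Zfp52, higher, and Ankrd37, Stc2, Slc16a3 and Per1, lower. All of these except Per1 also passed in the resistant lines (Per1 adjusted p = 0.0883). When the difference itself was tested, limma called 0 genes (0%), and 435 had an unadjusted p under 0.05, so the unequal counts do not show that the arms differ. Genes called in the resistant lines with large steps were Cd40 (1.87), Lmna (2.71), C2cd2l, a lipid transfer protein (1.63), Dusp1 (-2.86) and Ak4 (-1.60), with adjusted p from 0.0259 to 0.0428.

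None of the genes with the smallest p-values of the difference passed. Icam4, an adhesion molecule, stood at 6.55 and 5.09 in untreated 595sp and 638bm and at 6.61 and 5.17 after 2 h. In 595sp VR and 638bm VR it went from 6.92 and 7.29 to 5.84 and 6.09 (difference -1.21 ± 0.22, unadjusted p = 0.00037, adjusted p = 1). Fstl1 (-0.97), Plekho2 (-0.97), Bahcc1 (-0.95) and Moap1 (-0.89) differed in the same direction. Nmrk2 (1.3), S100a10, a partner of annexin A2 (1.08), Bdp1 (0.95), Tstd2 (0.88) and Slx4ip (0.85) had the higher change in the resistant lines. All of these have an adjusted p of 1, and they are given as values.

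Single lines had large changes of their own, each from 1 pair of arrays and with no test. In 638bm VR Lmna, which encodes the nuclear lamins A and C, went from 7.67 to 11.59, Vim, the intermediate filament vimentin, from 7.47 to 11.37, and Lgals3, a galectin, from 5.68 to 9.18. In the other lines Lmna changed by 0.78 to 1.49 (1.85 ± 0.39 over all 4, adjusted p = 0.023, lost without 595sp VR), Vim changed by 0.13 to 0.57 and Lgals3 by 0.04 to 0.20. Cd2, from the list of T cell markers, moved with them, by 2.25 in 638bm VR and 0.30 to 0.96 in the others (1.05 ± 0.25, limma, adjusted p = 0.0331, lost without 595sp VR). Over the 4 measured T cell markers the log2 of the summed signal was 8.89 to 10.62 at 0 h and 9.89 to 11.28 at 2 h. Cd3e exceeded background on 0 of 4 untreated and 1 of 4 treated arrays, and Cd3g changed by -0.08 on the mean; the part of T cells in these changes was not tested. By 8 h Lmna and Vim of 638bm VR were at 8.81 and 9.11. Slc7a7, a transporter of cationic amino acids, went from 7.88 to 11.01 in 638bm, and from 6.22 to 8.85 and 7.68 to 9.89 in the VR lines, but from 9.07 to 9.10 in 595sp (2.00 ± 0.38, adjusted p = 0.0162, lost without 595sp VR). A second probe gave 0.22 in 595sp and 1.98 to 3.60 in the other lines. In 595sp F2r, a thrombin receptor, went from 5.56 to 8.91 and in the other lines changed by -0.17 to 0.55. In 595sp VR Arpp21, a phosphoprotein, fell from 9.54 to 7.40.

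**Figure D5:**
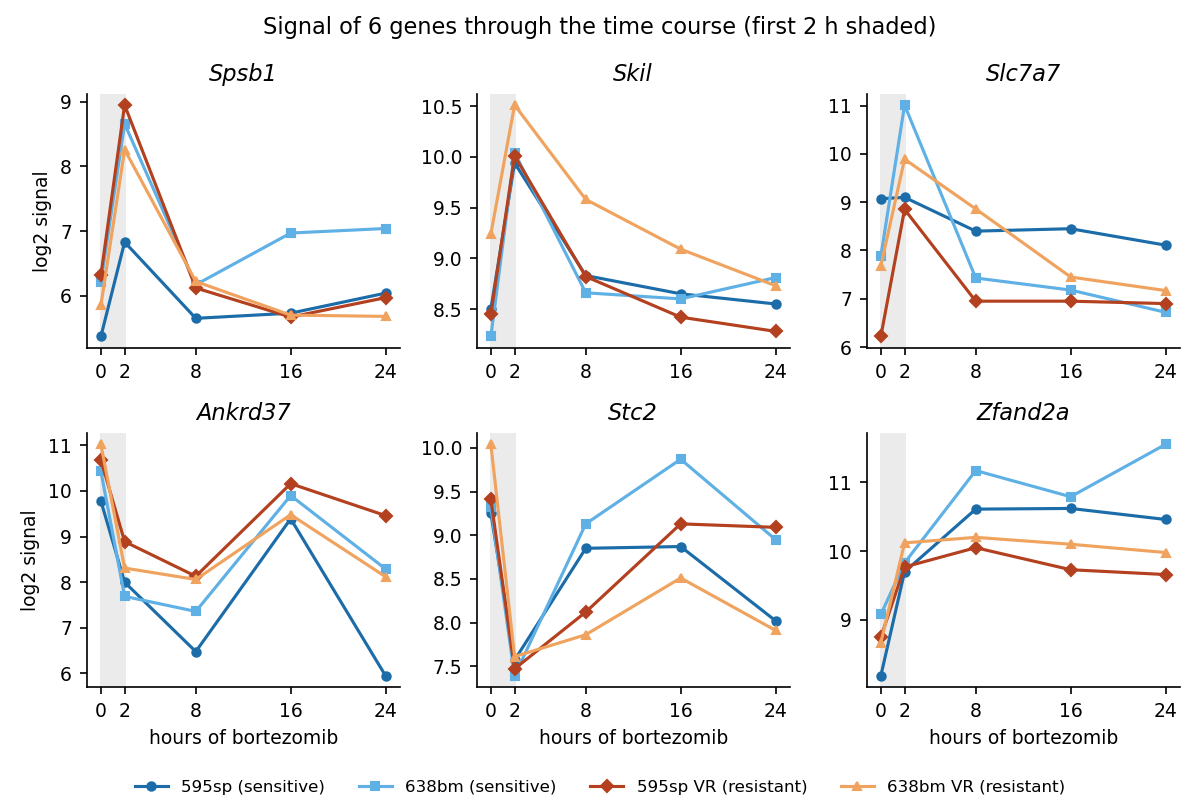
Log2 signal (y axis) of 6 genes at 0, 2, 8, 16 and 24 h (x axis; both 24 h arrays of a line averaged), 1 line per cell line, with the first 2 h shaded. Spsb1 and Skil peak at 2 h, Slc7a7 rises at 2 h in 3 of the 4 lines, Stc2 is near 7.5 in all lines at 2 h, and Zfand2a stays high.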

How the data were processed

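RNA of the 8 arrays was measured on Illumina mouse bead arrays. The deposited table gives the mean bead intensity of 45281 probes per array on a linear scale, not normalized, from 31.94 to 38749.43, with no detection p-values or control probes. A table of processed intensity values that the authors deposited has a median of 64.4 in each array and served as an alternative. For naming, 34885 probes had 1 gene symbol in the platform annotation, 18 several and 10378 none.

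Intensities were background-corrected (normexp, offset 16), quantile-normalized over all arrays and put on the log2 scale. Because control probes were not used, background was set per array as the mode of log2 intensity plus 2.326 SD of its lower side, in place of the planned detection p. Probes above it on at least 2 of the 24 arrays of the series (21947) were kept, and each gene took its brightest probe (11143 genes). Bounds for genes not above background in a group compare the brighter group with the lowest level above background. The 2 h change was tested in R 4.3.3 with limma 3.58.1, with the line as a block (3 residual and 7.64 prior degrees of freedom), and the arms in 1 model (2 and 7.22). P-values were adjusted over all genes (Benjamini-Hochberg, 0.05), and the steps were tested on simulated data. An exact permutation test of 4 pairs cannot go below 0.125.

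Lines pair the arrays by design, and deviations of a line at 0 h and 2 h from the means over lines correlated at 0.845 to 0.906 across genes. The genes described come from a fixed rule: 10 risen and 10 fallen genes ranked by the smallest of their 4 line changes, 5 in each direction by p of the difference, up to 5 called in each direction per arm, 3 in each direction per single line, the 4 smallest p of each list, and known stress genes; of these only a part is described. Members and lists were chosen with earlier results of these data known. Alternatives covered background, normalization, filter, probes, model, time label and each line left out.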

Additional observations from a re-analysis of the deposited data

Results flagged for a closer look

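Over 113 named genes, groups of 4 lines were examined for a value far from the other 3, at 0 h, at 2 h and for the change. Of 339 groups 16 held one, and chance alone gives about 1 in 20, or 17. In 638bm VR the change stood apart for Fos (-4.63), Klf6 (-2.23), Cd22 (-1.77), Vim (3.89), Lgals3 (3.50), Cflar (1) and Myc (0.05). The levels of that line stood apart for Ccnd1 at 0 h (10.95) and 2 h (10.09), Cd47 at 0 h (8.92) and Skil at 2 h (10.51). In 638bm the change stood apart for Dnaja1 (0.11) and Igtp (-0.79), and the level for Hspb1 at 0 h (5.41) and Dbp at 2 h (6.89). In 595sp the change of Endod1 (1.42) was the lowest.

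In 8 of the 113 genes examined, both sensitive lines moved one way and both resistant lines the other. The direct limma test of the difference gave an adjusted p of 1 for each. The mean changes in sensitive and resistant lines were 0.07 and -1.14 for Icam4, 0.39 and -0.58 for Fstl1, 0.29 and -0.69 for Plekho2, 0.35 and -0.54 for Moap1, and 0.27 and -0.13 for Ddit3. They were -0.40 and 0.55 for Bdp1, -0.57 and 0.28 for Slx4ip, and -0.13 and 0.75 for Tstd2. Cd3g, not counted among these 8, also rose in both sensitive lines (0.08 and 0.25) and fell in both resistant lines (-0.28 and -0.38).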

How the results depend on the processing

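Against 266 higher and 488 lower genes over all lines, the counts were 183 and 300 with median scaling, 82 and 172 with the background as a covariate, 178 and 285 with all 20 values in 1 model, and 109 and 251 with the time of 638bm VR from its characteristic. Leaving out 1 line gave 56 to 138 higher and 91 to 283 lower. Without the replicate block, which ignores that arrays are paired by line, limma called 0 genes in every comparison, with 239 at an unadjusted p under 0.05 over all lines, 183 in the resistant lines, 65 in the sensitive lines and 8 for the difference. The 39 higher genes of the resistant lines became 145 with median scaling, 9 with probes of a gene averaged, 73 with an intensity trend, 200 with the covariate and 5 with the characteristic, and 53 to 195 with 1 line left out. Their 70 lower genes became 121 with probes above background on at least 4 arrays, 24 with the mean of probes, 142 with the trend, 254 with the covariate and 15 with the characteristic, and 89 to 238 with 1 line left out. The 4 higher genes of the sensitive lines became 86 with the covariate and 1 with the characteristic, and 2 to 100 with 1 line left out. Their 4 lower genes became 2 with an offset of 50, with no background correction or with the authors' table, 1 with the mean of probes, 130 with the covariate and 1 with the characteristic, and 0 to 152 with 1 line left out. The difference, 0 genes, became 47 with the covariate and 0 to 54 with 1 line left out (54 without 595sp VR, 1 without 638bm VR). The cause of these moves was not tested beyond the smaller number of samples. With 1 line left out, its arm holds a single pair of arrays. The spread over lines then comes from the other arm alone. For the arm with the single pair and for the difference, such counts therefore cannot show a change over lines, and no conclusion is drawn from them. Of the 754 calls over all lines, 145 to 376 were kept with 1 line left out, 247 with the covariate and 331 with the characteristic. Of values that had not passed, Ddit3 turned to -0.05, Hspa1a to -0.03, Hspa1b to -0.05 and Nfkbia to 0.17 without 595sp, and Nfkbia to 0.08 with its probes averaged. With 1 line left out their ranges were -0.05 to 0.18, -0.03 to 1.01, -0.05 to 0.42 and -0.13 to 0.17. Single arrays per line and time limit all of these results.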
